A study of Homo sapiens with 6 samples.

Results

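The bins described here are 1101 segments of 100 Kb whose compartment score moved in a single direction through every time point of an estradiol (E2) course in T47D cells. They were chosen by the scores of the 5 parental libraries, as the autosomal bins that kept the sign of their score in T0, T1, T4, T16 and T24 and whose score either rose at each of the 4 steps (513 bins) or fell at each of them (588 bins). The rule kept 24641 autosomal bins with a single sign, among 30376 bins in the series, so the drifting bins were 4.47% of the bins considered and 3.62% of all bins. Their order and the size of their change between T0 and T24 were set by the rule and are given as descriptions.

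T47D cells are a human breast cancer line that expresses the estrogen receptor. Parental cells were starved of hormone for 72 h and collected before E2 (T0) or 1, 4, 16 and 24 h after addition of 100 nM E2 (T1, T4, T16 and T24). Tamoxifen-resistant T47D cells (TamR) formed the sixth condition, which the labels call untreated and the methods of the study describe as grown in medium with tamoxifen and charcoal-stripped serum. Contacts were captured by TCC, a form of Hi-C with ligation on a solid surface, after digestion with HindIII, and each condition had 1 library, so that no difference has a replicate check and no test between conditions was possible.

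Hi-C contacts divide the genome into compartment A, the open and gene-rich chromatin that contacts other open chromatin, and compartment B, the closed and gene-poor chromatin. The score of a bin is its value on the first eigenvector of the contact matrix, where a positive sign means A and a negative sign means B, and a larger size means a stronger preference for its own compartment. E2 binds the estrogen receptor, which attaches to DNA at palindromic estrogen response elements and recruits coactivators, and tamoxifen competes with E2 for that receptor. A rise within A or within B is therefore a shift of contacts towards A without a change of compartment, and a fall is a shift towards B. Scores are printed multiplied by 1000. They are relative to the other bins of their library, since the squared scores summed to 0.998 to 0.999 in each library. The depth of the libraries is unknown from these files.

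T0 stood apart from the E2 libraries in the roughness of its track. The median difference between adjacent bins, a measure of how rough a track is, was 0.705 in T0, 0.581 to 0.590 in the 4 E2 libraries and 0.643 in TamR. Across single-sign bins the Pearson correlation between parental libraries was 0.988 to 0.997, and it was 0.906 between T0 and TamR, over bins that share libraries and are not replicates. With T1, T4 and T16 the correlation was 0.993 to 0.995 for T0 and 0.990 to 0.993 for T24.

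The sequences that accompany the longest runs of drifting bins are shown because they place the runs at named promoters. They are the 250 bases before the start of the leading gene of the longest rising run, ADAMTS2 (chr5:178772463-178772712, minus strand), and of the longest falling run, GLG1 (chr16:74641043-74641292, minus strand), read 5′ to 3′ from GRCh37, the same build as hg19. Capitals mark the 5-base arm of the estrogen response element (GGTCA or its reverse complement TGACC).
ADAMTS2: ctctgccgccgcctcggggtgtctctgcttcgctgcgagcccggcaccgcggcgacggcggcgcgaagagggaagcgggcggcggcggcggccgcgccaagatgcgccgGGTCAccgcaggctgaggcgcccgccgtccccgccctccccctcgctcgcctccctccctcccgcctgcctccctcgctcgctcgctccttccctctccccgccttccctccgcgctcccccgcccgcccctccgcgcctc
GLG1: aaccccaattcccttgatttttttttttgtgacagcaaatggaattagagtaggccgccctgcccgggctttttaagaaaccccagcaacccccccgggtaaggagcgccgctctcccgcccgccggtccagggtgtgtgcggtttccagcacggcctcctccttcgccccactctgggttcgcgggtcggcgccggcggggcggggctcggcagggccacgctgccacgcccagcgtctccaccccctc
The ADAMTS2 promoter held 1 arm and the GLG1 promoter none, and 32.5% of the 19229 autosomal protein-coding promoters of this length held at least 1 on either strand. The GC content was 80.0% in the ADAMTS2 window, with 40 CpG dinucleotides, and 66.0% in the GLG1 window, with 22, against a median of 59.6% over all those promoters.

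The whole palindromic element is GGTCA and TGACC separated by any 3 bases. This element contains both arms, which read the same on both strands, unlike the 3 bases between them. It occurred 3 times in the runs and bins named below. Each is shown with flanking bases, the palindrome in capitals, on the plus strand of GRCh37. The elements lie inside COL23A1 in the second rising run of compartment A, in a falling run of compartment B between the starts of MYL1 and LANCL1 and outside protein-coding genes, and in the chromosome 4 bin with the third largest rise, also outside protein-coding genes. They were chosen for display after their positions were seen.
Chromosome 5, COL23A1 (chr5:177814328-177814360): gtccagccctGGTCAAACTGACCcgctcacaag
Chromosome 2, near MYL1 (chr2:211188502-211188534): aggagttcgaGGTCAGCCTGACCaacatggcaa
Chromosome 4 (chr4:1505851-1505883): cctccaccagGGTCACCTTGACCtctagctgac
A match of letters is a description of the window and says nothing of whether the receptor was bound there.

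The true order was among the more frequent orders of the 5 libraries, without being the most frequent. A bin without equal scores, and there were 0 ties, rises in exactly 1 of the 120 possible orders, so the mean over orders was fixed at 205.3 bins. The rising order held 513 bins, 2.5 times that mean and the sixth highest count, and the falling order held 588 bins, 2.86 times the mean and the fourth highest. Counts over the other orders reached from 46 to 864 with a median of 164.5 over all orders. The most frequent order was T24 < T16 < T1 < T4 < T0 with 864 bins, which differs from the steady fall only in the exchange of T1 and T4, and its mirror on the rising side, T0 < T4 < T1 < T16 < T24, held 620. The true order and its reverse ranked 3 as a pair among 60 such pairs, with 1101 bins against 1484 and 1195 for the highest pairs and a mean of 410.7.

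**Figure D1:**
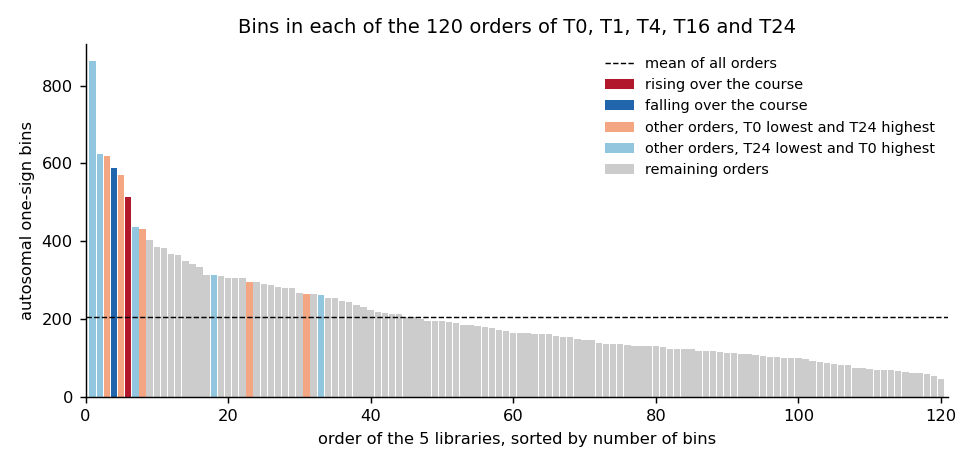
Number of autosomal single-sign bins (vertical axis) in each of the 120 orders of the 5 parental libraries, sorted from most to least frequent (horizontal axis). The steady rise (513 bins) and the steady fall (588 bins) stand above the mean of 205.3, and the 6 most frequent orders all have T0 and T24 at their ends.

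T0 and T24 held the extremes more often than the libraries between them. T0 and T24 were the lowest and the highest score, in either arrangement, in 23.5% of single-sign bins, against 10% if each order held an equal share. T24 was an extreme in 60.8% of bins and T0 in 49.3%, against 27.8 to 31.5% for T1, T4 and T16. Among the 6 orders with T0 lowest and T24 highest, which held 264 to 620 bins with a mean of 448.8, the steady rise ranked 3. Its counterpart among the 6 orders with T24 lowest and T0 highest, which held 262 to 864 with a mean of 514.5, also ranked 3. With the end points held, the middle 3 time points were thus in the order of the clock about as often as in the average arrangement, at 513 against 448.8 and 588 against 514.5 bins. Without T0, the order T1, T4, T16, T24 rose in 1505 bins and fell in 1623, together 1.5 times the mean of the 24 orders of 4 libraries and rank 3 among 12 pairs. Without T24, the order T0, T1, T4, T16 rose in 1489 and fell in 1578, which was 1.46 times the mean and rank 2.

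In the scores as deposited, steady falls were commoner in compartment A than in B. In A, 264 of 11397 bins rose (2.32%) and 353 fell (3.1%), and in B 249 of 13244 rose (1.88%) and 235 fell (1.77%). Over both compartments the rising share was 2.08% and the falling share 2.39%. Bins in A were 46.3% of those considered, 51.5% of the rising bins and 60% of the falling bins. Both figures moved with the scale of the libraries. The rising figure was 37.7% once a linear trend on GC content was removed from each library and 65.5% when each library was divided by its median absolute score. The falling figure was 66% and 48.4% under the same changes, and 46.6% when scores were replaced by their ranks, so the share of A among falling bins did not keep its distance from 46.3% under every scale.

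The absolute change between T0 and T24 had a median of 27.9% of the size of the T0 score, against 12.2% in the other single-sign bins. By class this median was 25.6% for rising in A, 28.7% for falling in A, 19.3% for rising in B and 43.3% for falling in B. In A, rising bins had a median score of 6.21 at T0 and 7.98 at T24, with a median change of 1.68 (quartiles 1.17 and 2.24). Bins falling in A went from a median of 4.63 to 3.24, with a median change of -1.29 (quartiles -1.65 and -0.97). Those rising in B went from -6.65 to -5.41, with a median change of 1.18, and those falling in B from -2.62 to -3.85, with a median change of -1.15. The median absolute change was 1.31 in drifting bins and 0.62 in the other 23540 single-sign bins. For scale, adjacent bins of a single parental track differed by a median of 0.581 to 0.705, and the median single step of bins rising in A, the class with the largest change, was 0.24 to 0.42.

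**Figure D2:**
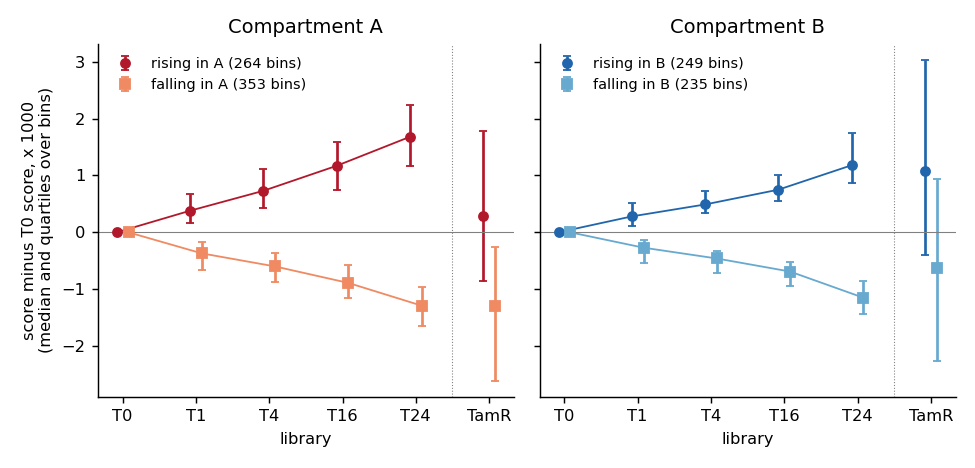
Median change of the score from T0, multiplied by 1000 (vertical axis), in each library (horizontal axis) for the 4 classes of drifting bins, with bars from the lower to the upper quartile over bins. From T0 to T24 the direction is set by the rule, and the TamR values, which the rule did not use, spread across 0 in 3 classes and stay below it between the quartiles for bins falling in A.

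The steps were unequal. The last step, from T16 to T24, was the largest in 441 of the 1101 bins (40.1%), and the first step, from T0 to T1, in 343 (31.2%). Steps from T1 to T4 and from T4 to T16 were the largest in 140 and 177 bins. The other single-sign bins had a like profile, with the largest absolute step from T16 to T24 in 38.3% and from T0 to T1 in 29.5%. In bins rising in B the last step led in 47.4%, and in bins falling in A the first and last steps led about equally, in 37.1 and 38.5%.

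A rule of strict order has a threshold at a step of 0. The smallest step of a drifting bin had a median of 0.071, and 719 of the 1101 had at least 1 step under 0.1. Just inside the threshold was chr8:126100001-126200000, where T1 and T4 both read 1.8305 and differed by 2.1e-06. Just outside it was chr14:103200001-103300000, which rose from 11.8804 at T0 to 12.4387 at T24 but went from 11.8804 to 11.8803 at T1. In all, 1165 other bins missed the rule by a single reversed step under 0.1, more than the bins that met it. With each step required to be at least 10% of the whole change, 119 bins rose and 151 fell, together 2.88 times the mean over orders counted by the same requirement.

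The drift was related to the strength of the score at T0, which the rule used. In B, falling bins made up 4.11% of the quintile of bins with the weakest T0 scores and 0.0378% of that with the strongest, whereas rising bins went from 0.868% to 3.78%. In A, falling bins were 2.68% of the weakest quintile, 5.05% of the middle quintile and 0.439% of the strongest, and rising bins were 2.37% of the weakest and 3.46% of the strongest. Some bins lay at the end of a stretch of adjacent scored bins with a single sign at T0. Such an end is a border between compartments, a gap without scores or the end of a chromosome. This held for 16.6% of bins falling in B, against 6.95% of all single-sign bins in B. It also held for 9.85% of bins rising in A, against 6.88% in A. The other bins gave 9.09% in B with T24 below T0 and 8.01% in A with T24 above T0. These ends were read from the sign of the T0 scores, which the rule used. The median T0 score was -2.62 in bins falling in B and -5.21 over all single-sign bins in B. The share at an end is therefore a description that is not separate from the T0 scores.

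Drifting bins occurred mostly as single bins, and their neighbours mostly moved the same way without meeting the rule. The 1101 bins formed 1005 runs, of which 934 were single bins, 52 were pairs and 19 held 3 bins or more, and 15.2% of the bins lay in a run of at least 2. That share was 24.2% for bins rising in A, 18.4% for bins falling in A, 6.02% for bins rising in B and 9.79% for bins falling in B. Regardless of compartment, 15.4% of rising and 15% of falling bins were in such runs, against a median of 5.35% over the other orders (0 to 26.9%), and 4 and 5 orders had higher shares. An order with more bins has more chances of adjacent bins, so the share moves with the count. Of the scored neighbours of a drifting bin, 82.1 to 89.5% had T24 on the same side of T0 in each class, against 43.3 to 56.7% of all bins of their compartment. The neighbours of other bins with T24 on that side were not examined, so this share is not shown to be particular to drifting bins. A single pair of adjacent bins drifted in opposite directions. Adjacent bins share contacts and are not independent.

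The longest rising run lay near the end of the long arm of chromosome 5, at chr5:178500001-179000000. Its 5 bins had mean scores of 6.39 at T0, 6.94 at T1, 7.30 at T4, 8.49 at T16, 9.40 at T24 and 10.29 in TamR, with changes from T0 to T24 between 2.74 and 3.27 in single bins. It contained the starts of ADAMTS2, an enzyme that trims procollagen, whose promoter is printed above, and of RUFY1, an endosomal trafficking protein. A second run, chr5:177700001-178100000, rose from 8.78 to 10.85 over 4 bins, with 10.15 in TamR, and held the starts of COL23A1, a transmembrane collagen, and CLK4, a kinase of splicing factors. Between them lay another rising bin with the start of ZNF454, a zinc finger gene, at 5.70, 5.84, 5.97, 7.21 and 7.63 from T0 to T24 and 10.49 in TamR. The 2 Mb window with the most rising bins, chr5:177200001-179200000, covered both runs and had 11 of them among 19 single-sign bins, and T24 exceeded T0 in all 19.

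The third run rising in A lay on the short arm of chromosome 12, at chr12:6400001-6700000, with 12 gene starts in 3 bins. Its mean score rose from 12.21 at T0 through 13.27, 13.60 and 14.25 to 14.88 at T24, and was 9.95 in TamR, below T0. The run began with PLEKHG6, and the genes that followed were TNFRSF1A, the tumour necrosis factor receptor, LTBR, the lymphotoxin beta receptor, SCNN1A, a subunit of the epithelial sodium channel, and CD27, a costimulatory receptor of lymphocytes. The surrounding window chr12:6300001-8300000 held 10 rising bins among 20, all 20 with T24 above T0, and its mean score was 8.54 at T0, 10.86 at T24 and 7.52 in TamR. Chromosome 12 as a whole had 52 rising bins, or 4.33% of its single-sign bins.

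Falling runs in A were on chromosomes 16, 10 and 7. The longest, chr16:74500001-75000000, had mean scores of 4.89, 4.53, 4.20, 3.91 and 3.72 from T0 to T24 and 4.28 in TamR over 5 bins. It held the starts of GLG1, a Golgi glycoprotein whose promoter is printed above, RFWD3, a ubiquitin ligase of DNA repair, MLKL, the effector of necroptosis, and FA2H, which hydroxylates fatty acids. In the surrounding 2 Mb window, chr16:73400001-75400000, T24 was below T0 in only 11 of 20 single-sign bins. The mean score of that window was -0.75 at T0 and -0.78 at T24. On chromosome 10, chr10:5500001-5900000 fell from 3.44 to 2.29 over 4 bins, with 3.20 in TamR, and held CALML5 and CALML3, calmodulin-like proteins of epithelia, ASB13, TASOR2 and GDI2, a regulator of Rab GTPases. On chromosome 7, chr7:8000001-8300000 with the start of GLCCI1, a glucocorticoid-induced gene, fell from 2.62 through 1.87, 1.70 and 1.37 to 0.71, and was at -0.44 in TamR, on the B side. In the first of these runs and the second, TamR lay between T0 and T24, and in the third it lay beyond T24.

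Runs in B were shorter and held few genes. Those rising were chr3:157300001-157600000 (-2.34 to -0.69, TamR -3.13), chr15:87200001-87400000 (-4.66 to -0.70, TamR -8.34) and chr15:88400001-88600000 (-3.24 to -1.17, TamR -4.96), and none held the start of a protein-coding gene. In all 3, TamR was more negative than T0. Those falling were chr5:13500001-13800000 (-3.66 to -5.41, TamR -3.88), which held no gene start, chr2:211100001-211400000 (-3.03 to -4.39, TamR -6.06) and chr2:168900001-169200000 (-2.11 to -3.16, TamR -4.30). The second of them held MYL1, a myosin light chain of skeletal muscle, LANCL1, a glutathione-binding protein, and CPS1, the entry enzyme of the urea cycle, and the third STK39, a kinase that regulates ion transporters. In both chromosome 2 runs TamR lay beyond T24.

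Single bins reached larger changes. The largest rise, 4.45, was at chr15:87300001-87400000, where the score went from -4.67 through -3.60, -2.94 and -1.34 to -0.21 and was -8.78 in TamR. It was followed by chr7:56200001-56300000, from -5.63 to -1.80 with 1.64 in TamR, where 3 steps covered -5.63 to -4.76 and the last step the remainder. The third was chr4:1500001-1600000, from 10.50 to 14.22 with 10.74 in TamR. The largest falls were at chr1:56300001-56400000 (-1.21 to -4.39, TamR 1.67), chr4:112100001-112200000 (-2.22 to -5.08, TamR -7.93) and chr3:34200001-34300000 (-1.24 to -3.99, TamR -2.67). None of these 6 bins held the start of a protein-coding gene, and their TamR scores stood on either side of T0.

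**Figure D3:**
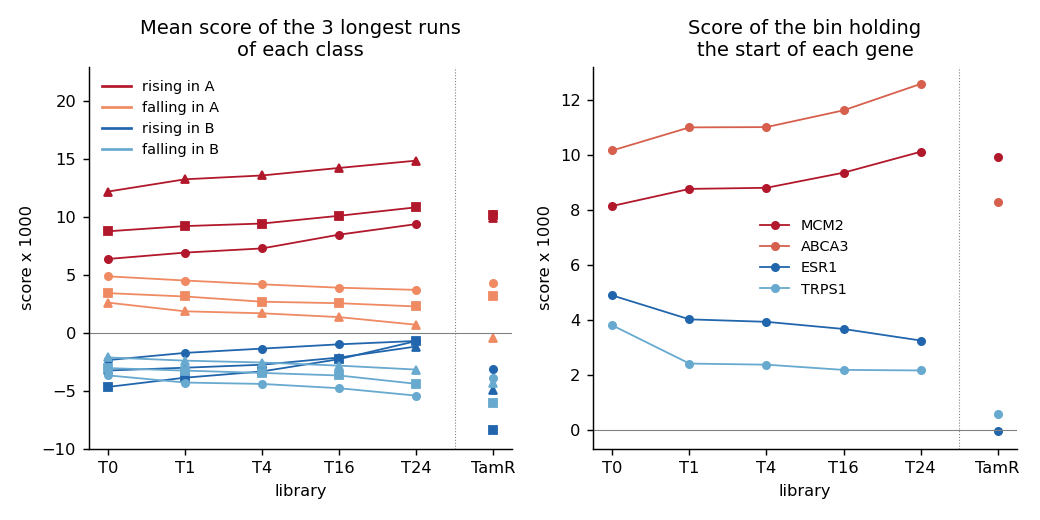
Left, mean score multiplied by 1000 (vertical axis) in each library (horizontal axis) for the 3 longest runs of each class, with circles, squares and triangles for ranks 1, 2 and 3. Right, score of the bin that holds the start of MCM2, ABCA3, ESR1 or TRPS1. In TamR the ESR1 bin is at -0.05 and the TRPS1 bin at 0.57, both below their T24 scores.

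Among genes of estrogen signalling, the start of ESR1, which encodes estrogen receptor alpha, lay in a bin that fell steadily. This bin, chr6:151900001-152000000, scored 4.90, 4.03, 3.94, 3.68 and 3.26 from T0 to T24, and -0.05 in TamR, at the border to B. ESR1 spans 6 bins (chr6:151977826-152450754, with its most upstream annotated start), and only that at its start met the rule. T24 was below T0 in all 6, with changes between -2.30 and -1.41, and the mean over them was 2.89, 1.91, 2.24, 1.72 and 1.23 from T0 to T24, with a reversal between T1 and T4. All 6 bins were negative in TamR, with a mean of -0.51.

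TRPS1, a zinc finger repressor of luminal breast cells, showed a like pattern in the bin of its most upstream annotated start. This bin scored 3.81 at T0, 2.42 at T1, 2.38 at T4, 2.19 at T16, 2.17 at T24 and 0.57 in TamR, so that nearly all of the fall came in the first step. The change between T1 and T24 was -0.32 SD of such changes over single-sign bins, and that between T0 and T24 -1.66 SD. TRPS1 spans 5 bins, of which 1 met the rule, and 4 of the 5 were negative in TamR. T24 was below T0 in all 5. The mean over them was 3.37, 1.87, 2.15, 1.66 and 1.76 from T0 to T24, with reversals between T1 and T4 and between T16 and T24. On the rising side were ABCA3, a lipid transporter among the estrogen targets, at 10.18, 11.02, 11.03, 11.64 and 12.60 with 8.31 in TamR, and MCM2, a subunit of the replicative helicase, at 8.16, 8.78, 8.82, 9.37 and 10.13 with 9.94 in TamR. The MCM2 bin was the only one of these 4 whose TamR score lay between T0 and T24.

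The lists of estrogen targets, luminal factors and proliferation genes each had 1 or 2 starts in drifting bins, too few to compare with the share of all genes. Of 17854 autosomal protein-coding genes with a start in a single-sign bin, 500 (2.8%) started in a rising and 365 (2.04%) in a falling bin. Of 38 classical estrogen targets 1 rose (2.63%) and 1 fell (2.63%). Of 24 luminal factors none rose and 2 fell (8.33%), ESR1 being on both lists. Of 45 proliferation genes 1 rose (2.22%) and none fell. No member of the 63 protocadherins or the 55 keratins was in a drifting bin, and the number of bins that their starts occupy is not given here. Numbered zinc finger (ZNF) genes had 24 of 448 starts in rising bins (5.36%) and 4 in falling bins (0.893%). They lie in clusters, so that the 24 starts fell in 14 bins. Olfactory receptor genes had 13 of 379 starts in rising bins (3.43%) and none in falling bins, and these came from only 6 bins, 5 of them in B.

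The ZNF genes led to chromosome 19, which held 31 rising bins (5.93% of its single-sign bins) and 1 falling bin (0.191%). T24 was above T0 in 86% of its single-sign bins. A pair of bins near the end of its long arm held ZNF579 (6.08, 7.08, 7.14, 7.96 and 8.82 from T0 to T24, TamR 13.18) and ZNF524 with 4 further ZNF genes (6.21, 6.79, 6.92, 7.49 and 8.56, TamR 13.02). The bin of ZNF676, in B, rose from -6.47 to -3.12 and was at 1.57 in TamR. Of the 31 rising bins, 16 (51.6%) had TamR beyond T24, against 36.1% of the 482 on other autosomes, while the other bins with T24 above T0 gave 45.2% on chromosome 19 and 38.5% elsewhere. With the mean of each chromosome subtracted within each library, chromosome 19 had 5 rising and 8 falling bins in place of 31 and 1. Chromosome 2 was the opposite case, with 0.744% rising and 3.25% falling bins and T24 above T0 in 38.1%.

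The direction of the drift within A went with base composition, which the rule did not use directly. GC content was not independent of the scores that the rule used. Its Pearson correlation with the score was 0.728 in T0 and 0.758 in T24, and 0.2 with the difference between T24 and T0. Bins rising in A also had a higher median T0 score than bins falling in A (6.21 against 4.63). Bins rising in A had a median GC content of 46.9% (46.3 to 47.9% when leaving out 1 chromosome at a time), bins falling in A 41% (40.9 to 41.1%), and all single-sign bins in A 43.7%. Over quintiles of GC content in A, the rising share went from 0.965% in the poorest to 4.69% in the richest quintile, and the falling share from 5.96% to 0.789%. In B the medians were 37.9% for rising, 37.8% for falling and 37.5% for all bins, and neither direction ran evenly over the quintiles. This ordering was not particular to steady drift, since the other bins in A had a median of 46.2% where T24 exceeded T0 and 42.4% where it did not. With the linear trend on GC removed within each library, 530 bins rose and 571 fell, and those in A had medians of 45.2 and 41.8%. The gap between the directions in A was also narrower with ranks in place of scores (44.5 and 41.9%), in 500 Kb bins (45.7 and 43.2%) and without T24 (44.3 and 42.4%), with rising bins the richer in each.

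**Figure D4:**
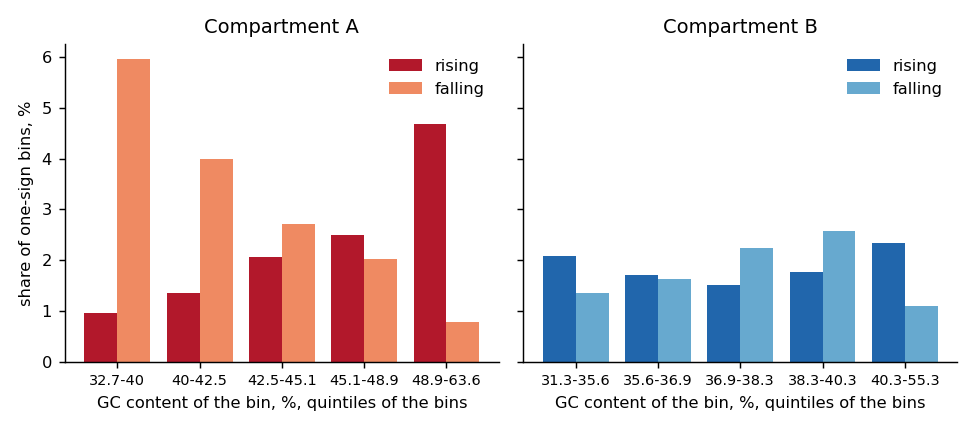
Share of single-sign bins that rose or fell steadily (vertical axis, %) in quintiles of the bins by GC content (horizontal axis, range of each quintile in %), for compartments A and B. In A the rising share climbs from 0.965% to 4.69% and the falling share drops from 5.96% to 0.789%, and in B no such order is seen.

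Within A, gene starts and estrogen response elements were more frequent in rising than in falling bins, and HindIII sites less frequent. There were 1.68 protein-coding gene starts per bin rising in A, 0.81 per bin falling in A and 1.25 over all bins in A, and in B the values were 0.229, 0.336 and 0.276. HindIII sites had medians of 22 per bin rising in A, 28 falling in A and 26 over A, and 31, 32 and 32 in B. At least 1 palindromic element, as in the sequences printed above, occurred in 30 of 264 bins rising in A (11.4%), in 20 of 353 falling in A (5.67%) and in 8.95% of all bins in A. In B it occurred in 8 of 249 rising bins (3.21%), 9 of 235 falling bins (3.83%) and 5.84% of all. The other bins in A with T24 above T0 held it in 10.4%, with 1.67 gene starts per bin and a median of 23 HindIII sites. Those with T24 below T0 held it in 7.95%, with 0.928 gene starts per bin and a median of 28 HindIII sites. The ordering in A was thus not particular to steady drift. The parts of GC content, gene density and element content in these differences were not tested separately.

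The TamR score was not used to choose the bins, although it is compared with T0 and T24, which were. Of the 1101 drifting bins, 463 (42.1%) had a TamR score beyond T24 in the direction of the drift, 278 (25.2%) between T0 and T24 and 360 (32.7%) back past T0. The other single-sign bins, oriented by the sign of their change between T0 and T24, gave 44.4%, 13.4% and 42.1%. The share beyond T24 was 28.8% in bins rising in A (29.1% in the other bins in A with T24 above T0), 50.4% falling in A (53.8%), 45.8% rising in B (45%) and 40.4% falling in B (46.3%). Weighted to the drifting bins' deciles of the difference between T24 and T0, the other bins gave 23, 50.3, 41.2 and 44.1% in the same order of classes, and weighted by deciles of the T0 score 31.5, 52.1, 44.2 and 46.5%. Bins falling in B were below, and bins rising in B above, the other bins under each weighting, and the other classes changed sides with it. The overall share was 40.8 to 42.9% when leaving out 1 chromosome at a time.

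**Figure D5:**
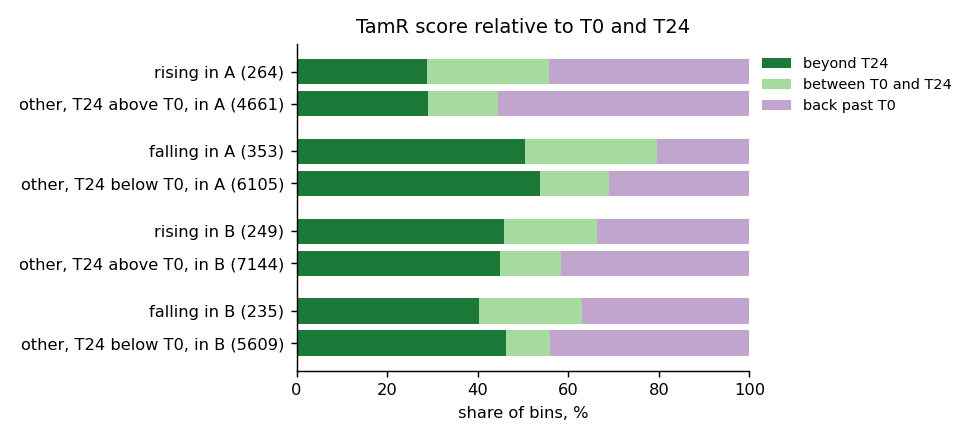
Share of bins (horizontal axis, %) whose TamR score lay beyond T24, between T0 and T24, or back past T0, for each class of drifting bins and for the other single-sign bins of the same compartment and side, with the number of bins in brackets. The share beyond T24 is 28.8% against 29.1% for bins rising in A and 50.4% against 53.8% for bins falling in A.

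The share between T0 and T24, an interval that is wider in drifting bins, was 26.9, 29.2, 20.5 and 22.6% for bins rising in A, falling in A, rising in B and falling in B, against 15.4, 15.3, 13.5 and 9.59% in the other bins. When the other bins were weighted to the same deciles of the difference between T24 and T0, their shares became 29.2, 24.1, 24.4 and 16.6%, above the drifting bins for the rising classes and below them for the falling classes. Weighted by deciles of the T0 score instead, they gave 14.6, 16.2, 14.7 and 11.3%. In bins falling in A the median change from T0 was -1.29 at T24 and -1.30 in TamR, with quartiles of -2.61 and -0.25. The other bins in A with T24 below T0 had -0.71 at T24 and -0.94 in TamR. In bins rising in A the median change was 1.68 at T24 and 0.28 in TamR, with quartiles of -0.85 and 1.79. The other bins in A with T24 above T0 had 0.66 at T24 and -0.23 in TamR. Over all single-sign bins in A the median change in TamR was -0.64.

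A change of compartment in TamR occurred in 124 drifting bins (11.3%), against 10.7% of the other single-sign bins. It was rarest in bins rising in A, with 11 of 264 (4.17%), and took place in 49 of 353 falling in A (13.9%), 29 of 249 rising in B (11.6%) and 35 of 235 falling in B (14.9%). The matching values in the other bins were 6.07, 11.5, 9.55 and 15%. The bin of the olfactory receptor genes OR4Q3 and OR4M1 on chromosome 14 was among those that changed, with -8.25, -7.80, -7.64, -7.12 and -6.11 from T0 to T24 and 0.82 in TamR.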

How the data were processed

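The authors deposited 1 score per 100 Kb bin of hg19 for each of 6 libraries, the first eigenvector of the interchromosomal contact matrix. According to the methods of the study, reads were mapped iteratively with bowtie2, low-coverage bins were removed, extreme counts truncated, the matrix corrected iteratively and contacts within chromosomes left out, using HiCLib. Whether replicate cultures were pooled is not given in the sources used here. A score of 0 marks a bin without a value. These deposited scores were used as they stand, with the sign as compartment. From them the direction of each bin, the counts over all 120 orders of the 5 parental libraries, runs of adjacent bins, and positions of TamR were computed (Python 3.11.15, numpy 2.4.6, pandas 2.3.3, scipy 1.17.1, pysam 0.24.0), with a check on simulated tracks. GC content, HindIII sites, palindromes and protein-coding gene starts came from GRCh37 and GENCODE 44 mapped to it, whose 23 chromosome lengths equal those of the files. No p-value was computed. Named were the 3 longest runs of each class, the 3 largest changes of each direction, up to 5 genes in each, and listed genes in drifting bins. Zinc finger and olfactory receptor genes, the ESR1 and TRPS1 spans, 2 Mb windows and chromosome 19 were described after their values were seen. The bins, lists and comparisons were chosen with earlier results of these data known. Alternatives were other scales, a GC trend, chromosome means, chromosome X, no condition on sign, weak bins left out, a minimum step, 500 Kb bins and each parental library left out.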

Additional observations from a re-analysis of the deposited data

How the results depend on the processing

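Each of 14 alternatives was applied to 7 results, and 53 of the 98 values stayed within 1.5 times the reported count or within the 95% Wilson interval of the reported share, which covers counting of bins alone. The share of bins with TamR beyond T24 stayed within its interval under all 14, from 39.3 to 44.9%. With ranks in place of scores, 46.6% of falling bins were in A. With scores divided by their median absolute score, 65.5% of rising and 48.4% of falling bins were in A, and with the GC trend removed 37.7% and 66%. With chromosome means subtracted, 45% of rising bins were in A and 17.6% of bins lay in runs. Without the condition on sign the count was 2.84 times the mean over orders. With each step at least 10% of the change, 119 bins rose and 151 fell, 2.88 times the mean, and 5.56% lay in runs. In 500 Kb bins 115 rose and 158 fell, 3.27 times the mean, with 20.1% in runs and 62.6% of rising and 50% of falling bins in A.

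Leaving out a library leaves 24 orders, which raises every count by construction. Without T0, 1505 rose and 1623 fell (1.5 times the mean), 28.7% lay in runs, and 41.1% of rising and 47.6% of falling bins were in A. Without T1, 2164 rose and 2541 fell (2.29 times), with 44.8% in runs and 45% of rising bins in A. Without T4, 1939 rose and 2300 fell (2.06 times), with 40.6% in runs and 44.7% of rising bins in A. Without T16, 1517 rose and 1608 fell (1.51 times), with 26.4% in runs, 45% of rising and 55.6% of falling bins in A. Without T24, 1489 rose and 1578 fell (1.46 times), with 24.4% in runs and 51.4% of falling bins in A. Apart from the counts, the cause of these changes was not tested. The median GC content in A stayed higher in rising than in falling bins under each alternative, and was nearest without T24 (44.3 and 42.4%). Of the 40 bins in the named runs, 22 still drifted steadily with ranks and 14 with the minimum step. No paired analysis was possible because there are no replicates to number or pair. The files hold no contact counts, so depth gives no limit for a single score.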

Other observations

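Bins that changed compartment during the course were outside the rule. Of 1868 autosomal bins with a score in every parental library and both signs among them, 49 rose steadily from B to A (2.62%) and 105 fell steadily from A to B (5.62%). The rise crossed the border in the first step in 18 bins, and the fall crossed it in the last step in 39. TamR lay on the new side in 29 of the 49 (59.2%) and in 65 of the 105 (61.9%). Among the other bins with both signs it lay on the side of T24 in 197 of 353 that were in B at T0 and in A at T24 (55.8%) and in 496 of 861 with the opposite change (57.6%). No gene of the lists of estrogen targets, luminal factors and proliferation started in any of them. The largest of these rises was at chr19:9400001-9500000, which holds the starts of ZNF699, ZNF559 and ZNF177, and went from -1.53 through -0.73, -0.52 and 1.01 to 3.10, with 11.20 in TamR. The largest fall, at chr6:144700001-144800000, went from 2.65 through 1.63, 1.51 and 0.86 to -0.36 and was at 4.91 in TamR.

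Chromosome X had 1296 bins of a single sign, of which 13 rose (1%) and 19 fell (1.47%).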
